A study of Mus musculus with 6 samples.

Results

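Store-operated calcium entry is represented here by a list of 6 genes, the store sensors Stim1 and Stim2, the channel subunits Orai1, Orai2 and Orai3, and the inhibitor Saraf. They were taken by name from a gene table of the mouse pancreas, in which all 6 were found among 12016 rows and all 6 were tested. Their RNA was compared between 3 male OCaR1-/- mice and 3 male wild-type mice (C57Bl6/N, written C56Bl6/N in the strain label of both genotypes), all aged 3 weeks and untreated. OCaR1 is encoded by Tmem63a and resides in the membrane of acidic organelles, which is background and not stated in the labels. How the null allele was made, and whether the mice were littermates, is not given in the sources used here. RNA came from whole pancreas, so each level sums over all the cell types of the organ.

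When agonists such as acetylcholine or cholecystokinin empty the calcium store of the endoplasmic reticulum, STIM proteins in its membrane sense the loss, cluster at contacts with the plasma membrane and open ORAI channels there. The calcium that enters refills the store and sustains signalling, and SARAF limits the entry by promoting its slow inactivation. In acinar cells, which make and secrete the digestive enzymes, this entry supports continued secretion, and its excess is known from models of acute pancreatitis.

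The table holds 1 FPKM value per genotype (sequenced fragments per kilobase of transcript relative to library depth, a unit that allows levels of different genes to be set side by side). Values of single mice are not in the table, so no SD stands beside any level, and whether a difference exceeded the spread between mice rests on the q-value in the authors' deposited table. A gene is called where that q is under 0.05. Of 11478 tested genes, 7.54% were called, 3.35% as lower and 4.20% as higher in the knockout. The targeted gene Tmem63a stood at 18.3 FPKM in wild type and 4.91 FPKM in the knockout, which is 26.8% of the wild-type level (q = 0.00152 in the authors' deposited table). The remaining signal at gene level does not show which part of the transcript it came from.

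All 6 genes had a lower value in the knockout than in wild type, and Orai2 and Saraf were called. The 2 calls of 6 stand against 3.35% called lower among all tested genes, where 55.1% had a lower value in the knockout. The median log2 fold change (knockout over wild type) was -0.36 over the 6 genes and -0.03 over all tested genes, and the 6 values ranged from -0.59 for Orai2 to -0.10 for Orai1. In these bulk samples, fewer cells of a type that expresses a gene and less of its RNA per cell cannot be told apart.

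**Figure D1:**
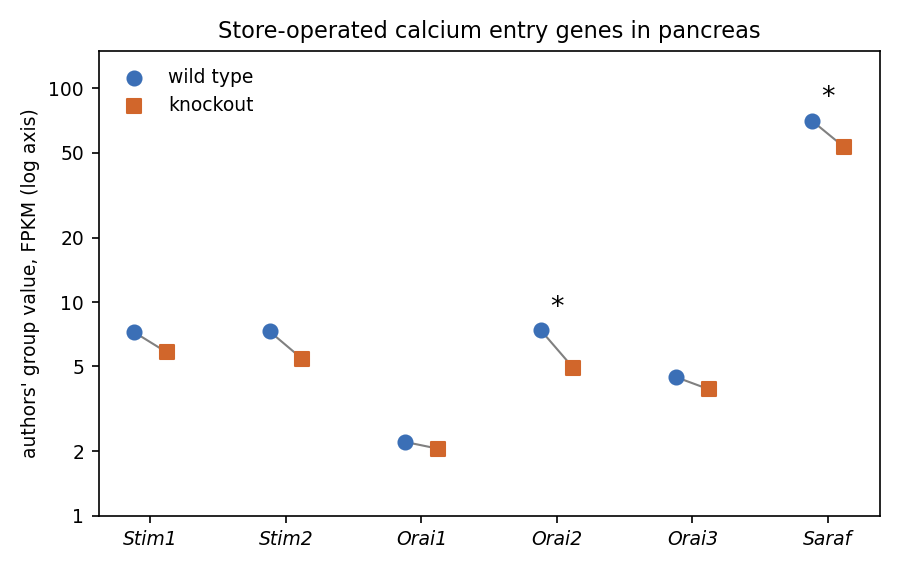
Group level of each gene in FPKM (log axis) in wild type (circles) and knockout (squares), 1 value per genotype with no error bar because the table holds no value of single mice; asterisks mark q under 0.05. Each knockout value lies below its wild-type value, and Saraf stands well above the other 5 genes, at 70.7 FPKM in wild type.

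The store sensors had nearly the same level in wild type. Stim1, which encodes the main sensor that gates ORAI channels after strong store loss, had 7.22 FPKM in wild type and 5.82 FPKM in the knockout. Its log2 fold change was -0.31, so 80.5% of the wild-type level was present, and it was not called (p = 0.00375, q = 0.0501 in the authors' deposited table). No other uncalled gene of the table had a smaller q. Stim2, whose product responds to smaller losses of store calcium and helps to set resting calcium, had 7.28 FPKM in wild type and 5.42 FPKM in the knockout. The log2 fold change of Stim2, at -0.43, was further from 0 than that of Stim1, but its q was 0.191 (p = 0.0264 in the authors' deposited table). Stim2 thus had the larger change and the larger q of the 2 sensors.

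Stim1 sits so close to the threshold that the rule of calling decides its side. Adjusting the deposited p-values again over all tested genes put it at q = 0.0496, a rule under which 3.35% of genes were called lower. With genes under 5 FPKM in both genotypes, Orai1 and Orai3 among them, left out before adjustment, Stim1 had q = 0.0439. Of the genes that remained, 4.81% were called lower. At a threshold of 0.1 on the deposited q it was also called, with 4.51% of genes called lower. At the stricter threshold of 0.01 Orai2 and Saraf were called and Stim1 was not, against 1.84% of genes called lower. Stim2 was called under none of these 4 rules.

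Stim1 lies on chromosome 7 (GRCm38, chr7:102267824-102436848, ENSMUSG00000030987) and Stim2 on chromosome 5 (chr5:53998417-54121057, ENSMUSG00000039156). Neither interval is shared with another row of the table.

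Of the channel subunit genes, Orai2 was the most abundant in both genotypes and the one that was called. Orai2 encodes a subunit that can join ORAI1 in mixed channels. It had 7.38 FPKM in wild type and 4.92 FPKM in the knockout, so that 66.6% of the wild-type level was present. The log2 fold change was -0.59 (p = 5e-05, q = 0.00152 in the authors' deposited table). That p is the smallest in the table and is shared by 394 genes, so it gives Orai2 no rank among them. By size, 147 of the genes called lower had a larger fall.

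Orai1, which encodes the pore-forming subunit of the calcium release-activated channel, was the least abundant of the 6 genes. It had 2.21 FPKM in wild type and 2.06 FPKM in the knockout, a log2 fold change of -0.10 (q = 0.906 in the authors' deposited table). Orai3, a subunit found in mammals that also forms mixed channels, had 4.45 FPKM in wild type and 3.91 FPKM in the knockout, a log2 fold change of -0.19 (q = 0.561 in the authors' deposited table). Neither was called, and the table gives no interval for either change, so a difference of the size seen for Orai2 is not shown to be absent. Whether the change of Orai2 differs from those of Orai1 and Orai3 was not tested, because the table has no value per mouse.

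Orai2 lies on chromosome 5 (GRCm38, chr5:136147464-136170656, ENSMUSG00000039747) and Orai3 on chromosome 7 (chr7:127769815-127775150, ENSMUSG00000043964), each in an interval of its own. Orai1 (ENSMUSG00000049686) is listed in an interval of chromosome 5, chr5:122870668-123030450, that it shares with the histone demethylase gene Kdm2b. According to GENCODE M21 (also GRCm38), the 2 genes lie on opposite strands with 25250 bases between them. Kdm2b had 2.75 FPKM in wild type and 2.78 FPKM in the knockout (q = 0.995 in the authors' deposited table). Whether the shared interval affected the level of Orai1 was not tested. Of rows that share no interval, 4.06% were called lower, and of the 4 genes described here that lie in such rows, 1 (Orai2) was called.

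The promoters of the 3 channel genes are shown because the paralogs differ in their calls. RefSeq (GRCm38.p6) gave a promoter for 5 of the 6 genes, with Saraf the one not matched. Each sequence below runs 5′ to 3′ on the gene's strand and ends before the first base that RefSeq or GENCODE places in the gene. Capitals mark matches on either strand to GGAAA (the core of NFAT sites), CACGTG (an E-box, bound by several basic helix-loop-helix factors) or TGACG (part of the cyclic AMP response element). No 2 of these matches overlap in the sequences shown. Orai1 is given for chr5:123014824-123015073 (plus strand), Orai2 for chr5:136170714-136170906 (minus strand) and Orai3 for chr7:127769565-127769814 (plus strand).
Orai1: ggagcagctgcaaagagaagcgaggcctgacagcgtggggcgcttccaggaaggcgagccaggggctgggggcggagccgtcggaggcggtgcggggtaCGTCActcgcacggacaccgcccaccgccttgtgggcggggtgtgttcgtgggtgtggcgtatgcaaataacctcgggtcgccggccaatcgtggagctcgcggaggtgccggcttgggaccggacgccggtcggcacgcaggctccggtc
Orai2: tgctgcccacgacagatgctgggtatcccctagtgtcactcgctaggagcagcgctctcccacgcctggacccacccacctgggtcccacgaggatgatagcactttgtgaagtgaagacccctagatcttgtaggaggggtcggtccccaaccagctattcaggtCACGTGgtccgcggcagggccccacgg
Orai3: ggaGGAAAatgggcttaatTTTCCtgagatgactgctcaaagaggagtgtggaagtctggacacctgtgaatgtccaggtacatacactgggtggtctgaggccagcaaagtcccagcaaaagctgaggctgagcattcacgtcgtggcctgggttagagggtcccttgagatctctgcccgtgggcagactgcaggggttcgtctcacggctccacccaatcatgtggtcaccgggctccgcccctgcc

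The 3 upstream sequences differ in composition. That of Orai1 was 70.8% G or C with 30 CpG dinucleotides in 250 bases, that of Orai3 57.2% with 7 in 250 bases, and that of Orai2 62.2% with 10 in 193 bases. Over the same 250 bases of all 32851 RefSeq promoters, the medians were 52.4% and 6 CpG dinucleotides. Orai2 held 1 CACGTG and none of the other motifs, and 4.11% of all promoters hold CACGTG in the same 193 bases. Orai1 held 1 match to TGACG, which 17.8% of all promoters hold in their 250 bases. Orai3 held 2 matches to GGAAA, a motif that 55.6% of all promoters hold in 250 bases. A match of letters describes the sequence and does not show that a factor binds there.

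Saraf had by far the highest level of the 6 genes. Its product sits in the membrane of the endoplasmic reticulum and associates with STIM. Saraf had 70.7 FPKM in wild type and 53.0 FPKM in the knockout, so that 75.0% of the wild-type level was present. The log2 fold change was -0.41 (p = 5e-05, q = 0.00152 in the authors' deposited table). The wild-type level of Saraf exceeded those of 96.6% of tested genes, while those of Stim1, Stim2 and Orai2 exceeded between 63.1% and 63.6%, that of Orai3 48.0% and that of Orai1 25.7%. Stim2 had a log2 fold change (-0.43) close to that of Saraf without a call, at a much lower level. Orai2, with a larger change, was called at a wild-type level near that of Stim2, and the part of level in the calls was not tested.

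Saraf (ENSMUSG00000031532) is listed at chr8:34154563-34170845 of GRCm38, an interval shared with the microRNA gene Mir6395. According to GENCODE M21, Mir6395 is 91 bases long, lies on the opposite strand inside Saraf and overlaps none of its exons. Mir6395 was not tested by the authors. It is listed at 10.4 FPKM in wild type and 14.7 FPKM in the knockout, and libraries selected for poly(A) are not made to measure microRNA genes.

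The summed levels of sensors and channels differed between genotypes by the same proportion. The summed level of Stim1 and Stim2 was 14.5 FPKM in wild type and 11.2 FPKM in the knockout, and that of the 3 ORAI genes was 14.0 FPKM in wild type and 10.9 FPKM in the knockout. Both sums had a log2 fold change of -0.37, and the ratio of summed STIM to summed ORAI was 1.03 in both genotypes. The ratio of Saraf to summed STIM was 4.87 in wild type and 4.72 in the knockout. These sums carry no error and were not tested.

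**Figure D2:**
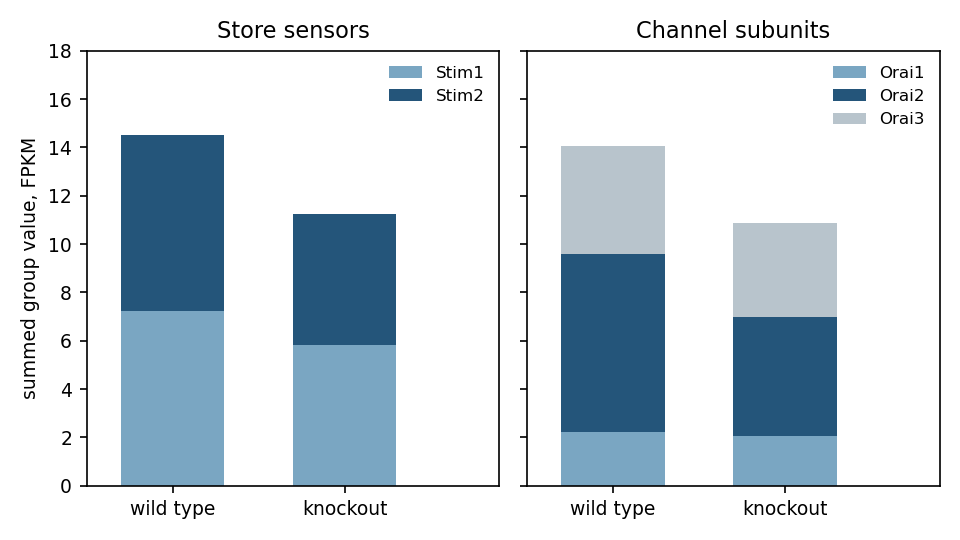
Group levels in FPKM stacked by gene, for the store sensors (left) and the channel subunits (right), 1 bar per genotype with no error bar. The sensor bars reach 14.5 FPKM in wild type and 11.2 FPKM in the knockout and the channel bars 14.0 and 10.9 FPKM, with Orai2 the largest channel segment in both.

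Orai2 had a smaller part of the channel transcripts in the knockout than in wild type. It made up 52.6% of the summed ORAI level in wild type and 45.2% in the knockout, a difference of -7.38 percentage points. Orai3 made up 31.7% in wild type and 35.9% in the knockout, and Orai1 15.8% in wild type and 18.9% in the knockout. The order of the ORAI genes, Orai2 over Orai3 over Orai1, was the same in both genotypes. Among the sensors the order turned, since the ratio of Stim1 to Stim2 was 0.992 in wild type and 1.07 in the knockout. Orai2, Stim2 and Stim1 followed Saraf in wild type with successive ratios of 1.01 and 1.01, so that their order there has no known error and is not to be relied on. In the knockout the order after Saraf was Stim1, Stim2, Orai2, Orai3 and Orai1.

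**Figure D3:**
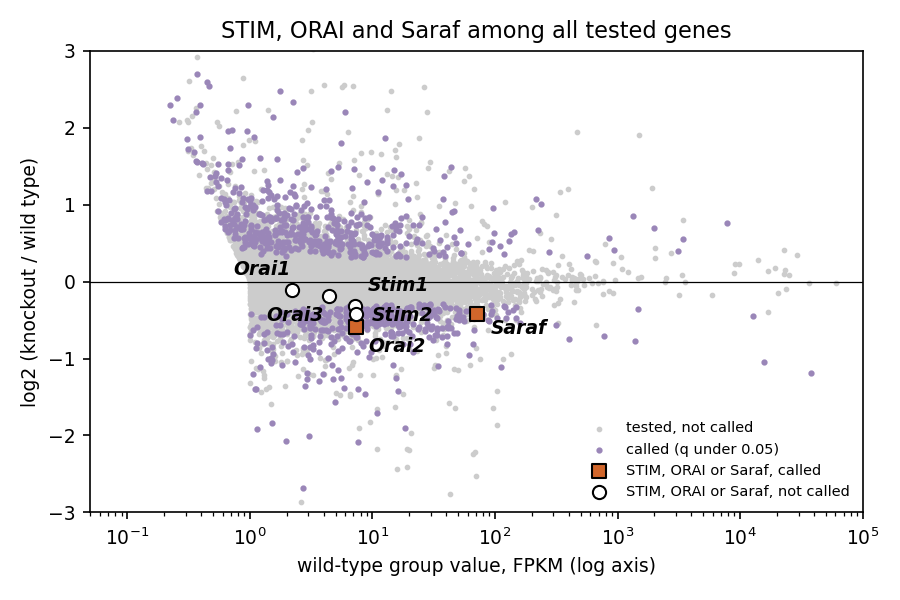
Log2 fold change (knockout over wild type) of each tested gene against its wild-type group level in FPKM (log axis), with called genes in purple and the 6 genes in large symbols; 25 genes beyond 3 on the vertical axis and 2 genes left of the horizontal axis limit are not drawn. All 6 genes lie below 0, at values that many uncalled genes share, and the 2 called ones are drawn as squares.

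Most genes with a change as large as that of Orai2 or Saraf were not called. Of 11441 tested genes with a fold change, 394 (3.44%) had a log2 fold change at or below that of Orai2, and 148 of these (37.6%) were called. Among the 4330 genes with a wild-type level within 2-fold of that of Orai2, 125 had such a value and 51 of them (40.8%) were called. At or below the value of Saraf there were 857 genes (7.49%), of which 289 (33.7%) were called. The values of Stim2, Stim1, Orai3 and Orai1 were reached or passed by 7.09%, 13.2%, 25.7% and 38.1% of these genes.

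Around the STIM and ORAI core, a list of 54 further genes of calcium entry, store handling and calcium decoding was read from the same table, in which 38 were present and tested. The authors' deposited table called 1 of them higher (Cav1) and 2 lower (Ppp3ca and Rcan2), which is 3 of 38 against 7.54% of all tested genes. Their median log2 fold change was -0.04, next to -0.03 over all tested genes, and 23 of the 38 had a lower value in the knockout. At q under 0.05, the share of calls in this wider list was thus close to the background. In the authors' deposited table, Trpv6 (q = 0.0511), Trpm4 (q = 0.0638) and Camk2b (q = 0.0897) lay between 0.05 and 0.1. Trpv6 and Trpm4 had lower values in the knockout and Camk2b a higher one. At q under 0.1, Ppp3ca, Rcan2, Trpv6 and Trpm4 were thus lower among the 38 genes, against 4.51% of all tested genes. Cav1 and Camk2b were higher at that threshold. The closeness to the background is stated for q under 0.05 only.

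Among regulators of STIM and ORAI and proteins of membrane contact sites, 1 of 11 tested genes was called, near the 7.54% called over all tested genes. Cav1, which encodes the scaffold of caveolae, rose 1.80-fold, from 18.7 to 33.7 FPKM (q = 0.0368 in the authors' deposited table, in an interval shared with another row). Caveolin is abundant in endothelial and fat cells, of whose markers 3 of 5 and 4 of 5 were called higher in the same group, with the endothelial gene Kdr lower in value, and their part in this rise was not tested. The 2 most abundant genes of this group were not called. Pdia3, a disulfide isomerase of the endoplasmic reticulum, had 100.3 FPKM in wild type and 93.1 FPKM in the knockout (q = 0.806 in the authors' deposited table). Surf4, a cargo receptor of the same compartment, had 82.6 FPKM in wild type and 70.1 FPKM in the knockout (q = 0.694 in the authors' deposited table, in a shared interval). The group median was 0.03 on the log2 scale.

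Of other channels that admit cations through the plasma membrane, 4 were tested and 0 were called by Cuffdiff, against 7.54% of all tested genes. Trpm4 and Trpv6, 2 of the 4, had an unadjusted p under 0.05, as had 2006 of all 11478 tested genes. Trpm7, a channel fused to a kinase, had 6.21 FPKM in wild type and 6.46 FPKM in the knockout (q = 0.951 in the authors' deposited table). Trpm4, a calcium-activated channel for monovalent cations, had 4.67 FPKM in wild type and 2.83 FPKM in the knockout (q = 0.0638 in the authors' deposited table, in a shared interval). The log2 fold change of Trpm4, at -0.72, was larger than that of Orai2 but missed the threshold. Trpv6 had 2.54 FPKM in wild type and 1.89 FPKM in the knockout, a log2 fold change of -0.42. It was closer to the threshold than Trpm4 (p = 0.00385, q = 0.0511 in the authors' deposited table).

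Of the genes that release calcium from the store or return it, 5 were tested and 0 were called by Cuffdiff, against 7.54% of all tested genes. An unadjusted p under 0.05 was found for 2 of the 5, and for 2006 of all 11478 tested genes. Atp2a2, which encodes the main calcium pump of the endoplasmic reticulum, had 31.0 FPKM in wild type and 25.9 FPKM in the knockout (q = 0.108 in the authors' deposited table, in a shared interval). Atp2a3, which encodes another pump of the same compartment, had 2.45 FPKM in wild type and 3.35 FPKM in the knockout (p = 0.0183, q = 0.153 in the authors' deposited table), so the 2 genes under that p, Atp2a2 and Atp2a3, differed in direction. Itpr2, an inositol trisphosphate receptor gene, had 5.81 FPKM in wild type and 4.47 FPKM in the knockout (q = 0.641 in the authors' deposited table, in a shared interval). The plasma membrane pump genes Atp2b1 (3.46 FPKM in wild type, 3.55 FPKM in the knockout) and Atp2b4 (1.91 and 2.16 FPKM) were not called either, with 0 at an unadjusted p under 0.05.

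Downstream of entry, 2 of 16 tested genes of calcium decoding were called, both lower, against 3.35% called lower over all tested genes. Both belong to the calcineurin branch, in which calcium activates a phosphatase that acts on NFAT factors. Ppp3ca, a catalytic subunit gene of calcineurin, fell from 18.7 to 12.5 FPKM, a log2 fold change of -0.58 (q = 0.00404 in the authors' deposited table). Rcan2, a regulator of calcineurin, fell from 5.50 to 3.66 FPKM, a log2 fold change of -0.59 (q = 0.0334 in the authors' deposited table). The values of Ppp3ca, Rcan2 and Orai2 lay within 0.01 of each other on the log2 scale. Whether they changed together was not tested, and 394 tested genes had a value at or below that of Orai2. Other genes of the same branch were not called. The second catalytic subunit gene Ppp3cb had a log2 fold change of -0.13 and the regulatory subunit gene Ppp3r1 one of -0.03 (q = 0.792 and 0.962 in the authors' deposited table). Rcan1, the paralog of Rcan2, had 3.48 FPKM in wild type and 3.47 FPKM in the knockout, and the log2 fold changes of Nfatc3 and Nfatc2 were -0.05 and -0.0062. Further from 0, also without a call, were Nfatc1 at -0.27, the catalytic subunit gene Ppp3cc at -0.29 and Nfat5 at -0.40. Their q was 0.183, 0.403 and 0.538 in the authors' deposited table. The median of the decoding genes was -0.09, and 13 of 16 had a lower value in the knockout, as had 55.1% of all tested genes.

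**Figure D4:**
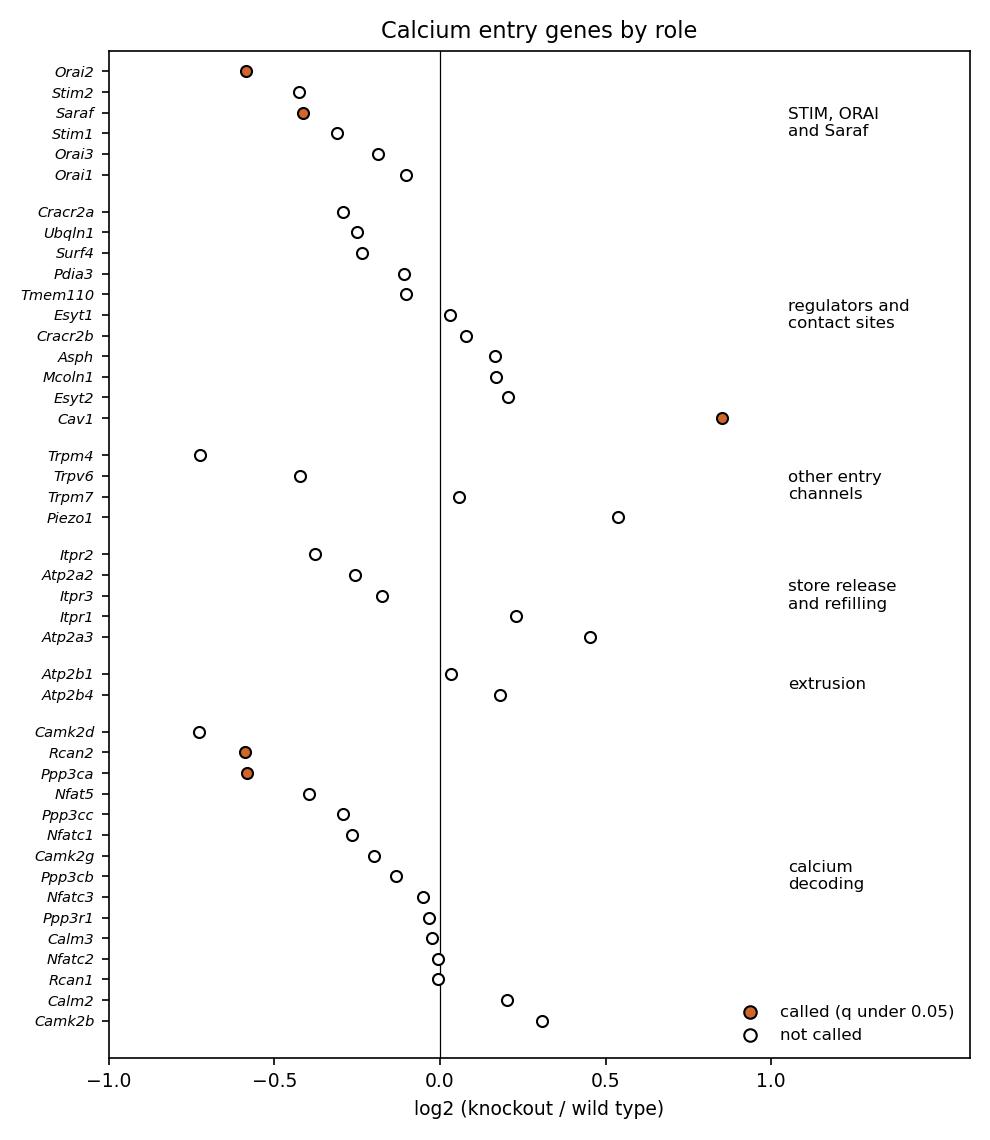
Log2 fold change (knockout over wild type) of the 6 genes and of 37 of the further calcium genes present in the table, grouped by role; filled points passed q under 0.05 in the authors' deposited table. The 6 core genes all lie below 0, while the further groups spread to both sides, from -0.73 to 0.85.

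The cell make-up of the 2 groups of samples was read from marker lists, since the genes above are expressed in many cell types. Acinar markers dominated both genotypes, with a sum over 6 genes of 71225 FPKM in wild type and 69791 FPKM in the knockout, and 2 of the 6 were called lower. The counts below stand against 4.20% of all tested genes called higher and 3.35% called lower. All 8 islet markers were called higher (sum 2553 FPKM in wild type, 4098 FPKM in the knockout), as were 8 of 9 macrophage markers (66.1 and 116 FPKM), 4 of 5 fat cell markers (68.4 and 145 FPKM), 3 of 5 endothelial markers (25.9 and 34.8 FPKM) and 2 of 6 stellate cell and fibroblast markers (315 and 400.0 FPKM). Of 5 duct markers 1 was called higher (93.1 and 103 FPKM), and of 2 markers of B and plasma cells 1 (2.52 and 6.28 FPKM). The endothelial receptor gene Kdr went the other way, with 4.54 FPKM in wild type and 3.86 FPKM in the knockout and no call (p = 0.0292, q = 0.202 in the authors' deposited table). All 5 smooth muscle markers were called lower, with sums of 44.3 FPKM in wild type and 16.7 FPKM in the knockout. The T cell list had 1 tested gene, at 1.61 FPKM in wild type and 0.821 FPKM in the knockout, without a call. No marker present in the table was listed at 0. The 6 calcium entry genes thus had lower values in samples in which islet, macrophage and fat cell markers were higher and smooth muscle markers lower, and the part of these cells in the values was not tested.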

How the data were processed

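RNA from the pancreas of 6 mice was sequenced as single reads of 50 bases after poly(A) selection, with RNA integrity numbers between 8.20 and 9.10, per the labels' protocols. STAR 2.5.1b, Cufflinks 2.2.1, Cuffdiff and GRCm38 are named in the submitters' processing notes. The annotation release, the use of strand and all settings were not given in the sources used here. Per the file headers, the authors deposited 1 FPKM value per genotype for each gene, with the p-value and q-value of their comparison. Depth is unknown, and a row has at least 1 FPKM in 1 genotype, so lower genes were not used here. The number of columns with values of 1 mouse was 0, so the planned test on values of single mice was replaced by the q in the deposited table.

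Log2 fold changes were recomputed from the FPKM values, knockout over wild type, without a pseudocount (Python 3.11.15, pandas 2.3.3). Values under 0.01 FPKM were treated as listed at 0, which left 37 tested genes without a fold change. The 538 rows marked as not tested stayed out of all counts of tested and called genes. Intervals were shifted to start at 1, and 3502 of all 12016 rows, tested or not, share theirs with another row. Benjamini-Hochberg adjustment was tested on simulated data. Genes named are the 6 members, called genes of the wider list, the 2 most abundant per role, the genes that share an interval and Tmem63a; some values under this rule are not reported here. Atp2a3, Camk2b, Camk2d, Kdr, Nfat5, Nfatc1, Nfatc2, Nfatc3, Ppp3cb, Ppp3cc, Ppp3r1, Rcan1 and Trpv6 were named after their values were seen. The members and lists were chosen with earlier results of these data known. The alternatives were other q rules, pseudocounts of 0.5 and 1 FPKM, 3 scalings and leaving out shared intervals.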

Additional observations from a re-analysis of the deposited data

How the results depend on the processing

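No paired analysis was possible because the deposited table holds 1 value per genotype, and for the same reason no mouse could be left out in turn. Pseudocounts and the other 2 scalings moved each log2 fold change by less than 0.1, and a pseudocount cannot change its sign. With both genotypes scaled to the same summed FPKM outside the digestive enzyme genes, which made up 60.0% of the summed FPKM in wild type and 55.0% in the knockout, every log2 fold change shifted by 0.22 downwards. The values were then -0.53 for Stim1, -0.64 for Stim2, -0.32 for Orai1, -0.80 for Orai2, -0.40 for Orai3, -0.63 for Saraf and -0.58 for the summed ORAI level, and relative to the median of all genes they did not move. The calls cannot be recomputed under another scaling. Leaving out Saraf and Orai1, which share their intervals, left 1 call among 4 genes, Orai2, against 4.06% called lower among rows that share no interval. At q under 0.01 the wider list kept 1 call of 38 genes, Ppp3ca, which was lower, against 1.84% of all tested genes called lower. Adjusted again over all tested genes or at q under 0.1, there were 3 calls of the 6 genes, with Stim1 the third. Among genes with at least 5 FPKM in either genotype, which leaves out Orai1 and Orai3, the same 3 genes were called. All were lower, and 3.35%, 4.51% and 4.81% of the genes under these rules were called lower.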
